A study of Homo sapiens with 8 samples.

Results

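The noncoding snoRNA host genes GAS5, SNHG1, SNHG3, SNHG5, SNHG6, SNHG7, SNHG8, SNHG12, SNHG15, and SNHG16 were examined in RNA precipitated with RPS6, the S6 protein of the small subunit of the ribosome. They were taken by gene symbol, and these 10 genes were found among 57756 genes listed. RNA immunoprecipitation sequencing (RIP-seq) had been performed with an RPS6 antibody in 4 human cancer cell lines, and part of each lysate was kept as the input. The liver cancer line Hep3B, the colorectal cancer line HCT116, the prostate cancer line DU145, and the pancreatic cancer line SW1990 each gave 1 RIP library and 1 input library, so that there are 4 RIP libraries, 4 inputs, and no replicates within a cell line. The titles of the liver pair carry 3B, while its cell line field says Huh7, and the pair is called Hep3B here. The labels name no treatment or genetic change of the cells, and a precipitation with a control antibody was not analysed here. The comparison asks which host transcripts were found with RPS6 less or more than in the whole lysate.

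Small nucleolar RNAs (snoRNAs) of the box C/D class guide ribose methylation and those of the box H/ACA class guide pseudouridylation of ribosomal RNA, and in human cells most of them are cut from introns of a host gene. Some host genes code for proteins of the ribosome or of its assembly, while the genes examined here are spliced and exported but lack a long conserved reading frame. Short reading frames in such transcripts, GAS5 among them, can be entered by ribosomes, after which nonsense-mediated decay degrades the RNA. Many of these genes begin transcription at a terminal oligopyrimidine (TOP) element, a C followed by pyrimidines at the 5′ end, which they share with the mRNAs of ribosomal proteins and through which translation responds to mTOR signaling.

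The bases around the annotated start of the hosts are shown because they hold the letters of the TOP element, where it is present. The sequences come from RefSeq promoters of GRCh38.p14, which had an entry for 8 of the 10 genes. Each window runs 5′ to 3′ on the strand of the transcript, from 10 bases before the start to 20 bases from the start base on. Capitals mark a C followed by at least 4 C or T, read from the start base or, failing that, from the nearest such C within 5 bases of it, so that a pyrimidine just before the capitals may extend the run.
SNHG5 (chr6:85678714-85678743, minus strand): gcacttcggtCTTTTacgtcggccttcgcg
SNHG12 (chr1:28581854-28581883, minus strand): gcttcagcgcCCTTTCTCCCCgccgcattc
SNHG7 (chr9:136728165-136728194, minus strand): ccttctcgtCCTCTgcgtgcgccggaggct
SNHG8 (chr4:118278752-118278781, plus strand): ctcggcCTTTCacattcgggaagcgtcggg
SNHG16 (chr17:76557754-76557783, plus strand): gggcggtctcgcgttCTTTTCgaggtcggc
GAS5 (chr1:173869026-173869055, minus strand): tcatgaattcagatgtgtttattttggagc
SNHG1 (chr11:62855866-62855895, minus strand): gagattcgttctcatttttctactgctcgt
SNHG3 (chr1:28505933-28505962, plus strand): gtgagtttctgattctctaactgcgcatgc

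The start base itself was such a C in SNHG5, with a run of 5 bases counted from there, and in SNHG12, with a run of 11 bases counted from there and a further c just before it. In SNHG7, SNHG8, and SNHG16 such a C lay within 5 bases of the start, and GAS5, SNHG1, and SNHG3 had none within that distance. Searched on the transcript strand only, the run stood at the start base in 2 of 8 host genes (25%), in 43 of 63 ribosomal protein genes (68.3%), and in 1104 of 27305 promoters of the table (4.04%). Within 5 bases either side it was found in 5 of 8 host genes (62.5%), in 51 of 63 ribosomal protein genes (81%), and in 21.1% of all promoters. A match describes the letters of 1 annotated start and is not a measured start site. Nor does a missing match show that a gene lacks a TOP element. Of the first 20 bases, 16 were pyrimidines in SNHG1, 12 in SNHG3, and 10 in GAS5, which had no such run. The count was 17 in SNHG12, 14 in SNHG5, 12 in SNHG16, 11 in SNHG7, and 8 in SNHG8.

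Between 35796159 and 54209614 fragments were recovered per input and between 34630349 and 42610124 per RIP library. Hep3B and HCT116 are listed in one table and DU145 and SW1990 in another, so RIP and input of a cell line were always compared within a table, while levels set side by side across these pairs of cell lines assume a shared scale. The Hep3B input held all 6 liver markers at 1 FPKM or more, with a summed level of 6491 FPKM against at most 17.0 FPKM in the other inputs. Of 6 intestinal markers only CDX2 reached 1 FPKM in HCT116, with a summed level of 6.70 FPKM, while 4 did in SW1990 (97.9 FPKM) and 2 in Hep3B (170 FPKM). Of 6 pancreatic duct markers 4 reached 1 FPKM in SW1990 and 3 in each other line, and their summed level of 239 FPKM in SW1990 was below the 589 FPKM of HCT116 and the 416 FPKM of DU145. The intestinal and pancreatic duct markers thus did not set apart the lines labelled as colorectal and pancreatic.

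Host transcripts were less abundant with RPS6 than in the input. In the test across all genes, 9 of the 10 host genes were lower in RIP and 0 were higher, with SNHG7 not passing, whereas 24.9% of the 19921 genes tested were lower and 26.5% were higher (edgeR's quasi-likelihood test with the cell line as a block and Benjamini-Hochberg adjustment, threshold 0.05). Scaling by library size alone changed the split over all genes from 5282 higher and 4960 lower to 3894 higher and 6381 lower and shifted the median of all genes by -0.34 on the log2 scale, and all 10 host genes were then lower. All 10 had enough counts to be tested. The median log2 fold change of the host genes was -1.95, against -0.05 over all genes tested and 0.13 over 13564 protein-coding genes. Of 40 pairs of a host gene and a cell line, 39 had a lower FPKM in RIP, and the 1 exception was SNHG16 in SW1990. The mean log2 ratio of FPKM was below 0 in all 10 host genes and in 7641 of 16900 genes averaging 1 FPKM or more. In 5 genes, GAS5, SNHG1, SNHG3, SNHG6, and SNHG8, every RIP library lay below every input. The share of all genes with such a gap is not given here, so this count only describes the hosts. RIP-seq gives shares of a library from bulk lysates, so fewer cells holding bound transcript and less bound transcript per cell cannot be told apart. Each p-value rests on 4 cell lines with 1 pair each and on a variance that the test draws towards that of all genes. It is thus not a measure of the spread of the 4 pairs alone.

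**Figure D1:**
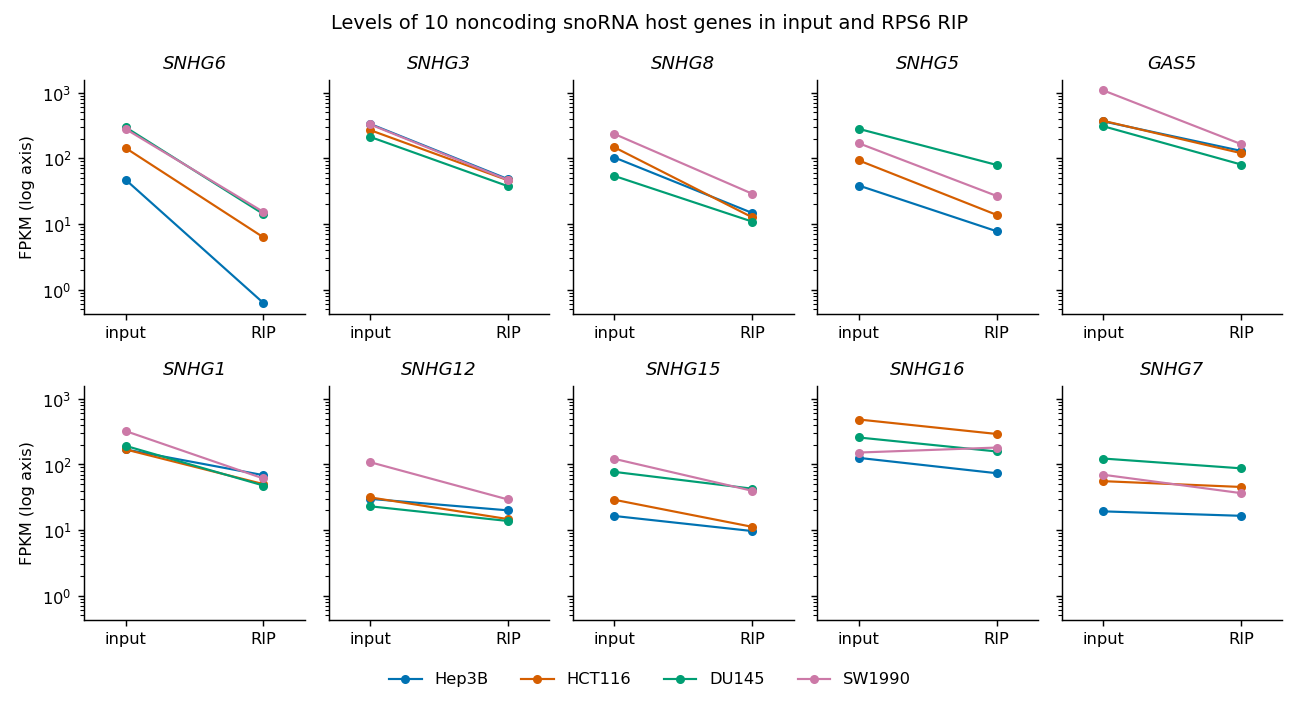
FPKM of each host gene in the input and in the RPS6 RIP on a log axis, 1 line per cell line, with panels ordered by log2 fold change. SNHG6 falls most steeply, from 47.2 to 0.624 FPKM in Hep3B, and SNHG16 in SW1990 is the 1 line that rises, from 152 to 181 FPKM.

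Hosts of box C/D snoRNAs included both the steepest fall and a shallow one. SNHG6, the host of SNORD87, had 47.2, 144, 297, and 280 FPKM in the inputs of Hep3B, HCT116, DU145, and SW1990, and 0.624, 6.25, 14.1, and 15.2 FPKM in the RIP libraries in the same order. Its lowest input was above its highest RIP library. The level fell 25.2-fold in edgeR's quasi-likelihood test (log2 fold change -4.65, SE 0.358, Benjamini-Hochberg adjusted p = 1.27e-05), which placed SNHG6 4th from the lowest among 538 long noncoding genes tested. The Hep3B RIP value rests on 4 fragments, with an exact Poisson 95% interval from 1.09 to 10.2 fragments that covers counting error only.

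SNHG5, the host of SNORD50A and SNORD50B, was next in this class. Its input levels ranged from 38.5 FPKM in Hep3B over 92.8 in HCT116 and 170 in SW1990 to 281 in DU145, and its RIP levels were 7.74, 13.7, 26.7, and 79.2 FPKM in that order. The RIP level of DU145 was above the input of Hep3B, so the groups overlapped although each RIP library was below its own input. SNHG5 fell 6.13-fold (log2 fold change -2.62, SE 0.227, adjusted p = 1.48e-05), and the groups of 4 spread 7.30-fold among inputs and 10.2-fold among RIP libraries. Without the cell line block the adjusted p was 0.0788.

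GAS5, which accumulates in growth-arrested cells and carries a series of box C/D snoRNAs, had the highest mean level of the hosts in the inputs. Its inputs held 366, 373, 309, and 1085 FPKM in the order Hep3B, HCT116, DU145, and SW1990, and the RIP libraries had 130, 120, 80.4, and 165 FPKM. SW1990 had the highest level in both groups, the groups did not overlap, and the fall was 4.13-fold (log2 fold change -2.05, SE 0.226, adjusted p = 4.4e-05). The log2 ratio was -1.49 in Hep3B, where the fall was shallowest, and -2.71 in SW1990, where it was steepest.

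SNHG1, the host of SNORD22 and of several neighbouring box C/D snoRNAs, resembled GAS5. The inputs of Hep3B and HCT116 both held 169 FPKM, that of DU145 192, and that of SW1990 323, against 68.7, 50.2, 47.7, and 61.1 FPKM in RIP. The 4 RIP libraries lay close together, within 1.44-fold, and all were below the lowest input. SNHG1 fell 3.62-fold (log2 fold change -1.85, SE 0.202, adjusted p = 4.05e-05).

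SNHG16, the host of SNORD1A, SNORD1B, and SNORD1C, stood at the other end. Inputs of 126, 484, 258, and 152 FPKM in Hep3B, HCT116, DU145, and SW1990 faced RIP levels of 73.6, 292, 158, and 181 FPKM. The ratio of RIP to input was 0.584, 0.602, and 0.612 in the first 3 lines and 1.19 in SW1990. Its log2 fold change of -0.62 (SE 0.231) passed narrowly, with an adjusted p of 0.0460 in edgeR's quasi-likelihood test, and did not pass in 6 of 13 alternatives, where the adjusted p ranged up to 0.517. Among these, it was 0.0875 without the Hep3B pair, 0.129 without HCT116, and 0.197 without DU145.

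Among hosts of box H/ACA snoRNAs, SNHG3 and SNHG8 were far lower in RIP. SNHG3, which carries SNORA73A and SNORA73B, had the most even levels in FPKM. Its inputs held 335, 270, 212, and 329 FPKM in Hep3B, HCT116, DU145, and SW1990, and its RIP libraries 48.2, 46.3, 37.6, and 46.8 FPKM. FPKM spread 1.58-fold among inputs and 1.28-fold among RIP libraries, and the groups were far apart. Recovered fragments were less even, with 8782, 5450, 17206, and 19466 in the same inputs, whose depth ranged from 35796159 to 54209614 fragments. The test on counts gave an 11.8-fold fall (log2 fold change -3.57, SE 0.261, adjusted p = 1.25e-05), which was larger than the mean log2 ratio of FPKM of -2.63 ± 0.167 (SD, n = 4 cell lines).

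SNHG8, the host of SNORA24, had its lowest input in DU145 with 53.8 FPKM, followed by Hep3B with 103, HCT116 with 147, and SW1990 with 235. The RIP libraries held 10.8, 14.7, 12.6, and 28.8 FPKM in that order, all under the lowest input. The fall was 7.18-fold (log2 fold change -2.84, SE 0.246, adjusted p = 1.47e-05) and was steepest in HCT116, at a log2 ratio of -3.44, and shallowest in DU145, at -2.21.

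SNHG15, the host of SNORA9, had inputs of 16.4, 29.0, 77.1, and 122 FPKM from Hep3B through HCT116 and DU145 to SW1990. Its RIP levels of 9.67, 11.2, 42.7, and 39.7 FPKM were lower in each line, but the groups overlapped, since DU145 and SW1990 were high in both. SNHG15 fell 2.68-fold (log2 fold change -1.42, SE 0.226, adjusted p = 0.000428), and its adjusted p was 0.157 without the cell line block.

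SNHG7, which carries SNORA17A and SNORA17B, was the host gene that did not pass. Levels were 19.3, 55.7, 123, and 69.7 FPKM in the inputs of Hep3B, HCT116, DU145, and SW1990 and 16.5, 45.4, 87.3, and 36.6 FPKM in RIP. Each RIP value was under its own input, while the groups overlapped over most of their range. The log2 fold change was -0.38 (SE 0.183, adjusted p = 0.108), and it became -0.73 with an adjusted p of 0.0114 when libraries were scaled by size alone and -0.57 with 0.0332 without the Hep3B pair.

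SNHG12 carries both H/ACA snoRNAs and the C/D snoRNA SNORD99. Its inputs held 29.9, 31.6, 23.1, and 108 FPKM in Hep3B, HCT116, DU145, and SW1990, and its RIP libraries 19.99, 14.7, 13.8, and 29.3 FPKM. SW1990 was high in both groups, and its RIP level exceeded the DU145 input. SNHG12 fell 3.03-fold (log2 fold change -1.60, SE 0.233, adjusted p = 0.000246), with an adjusted p of 0.0706 without the cell line block. Both classes of host spanned wide ranges of log2 fold change, since C/D hosts ranged from -4.65 to -0.62 and H/ACA hosts from -3.57 to -0.38.

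**Figure D2:**
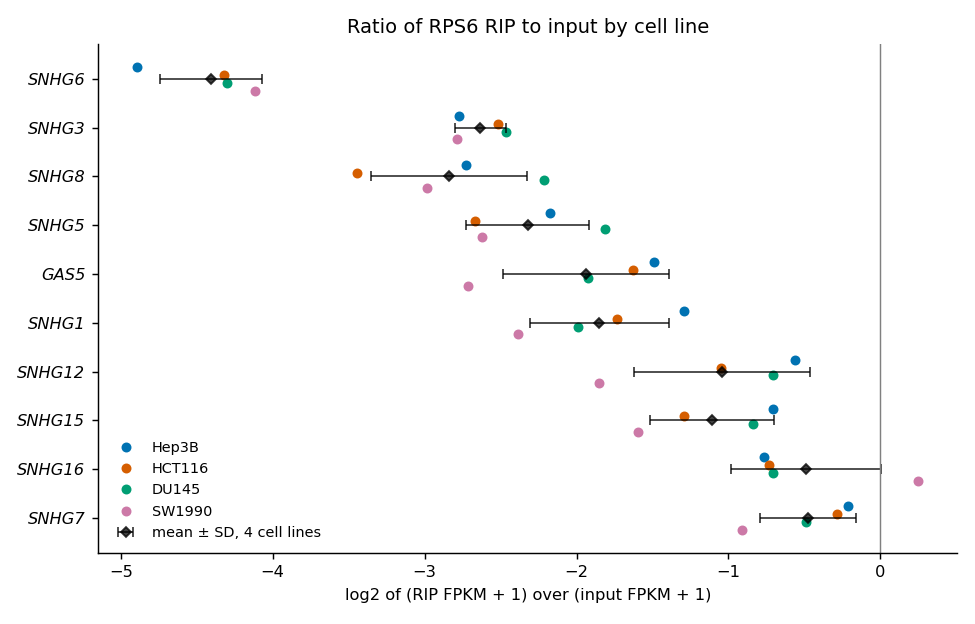
Log2 of RIP over input for each host gene, computed from FPKM with 1 added to both, by cell line (colours), with the mean and SD over 4 cell lines in black. SNHG6 lies between -4.89 and -4.11, while SNHG16 reaches 0.25 in SW1990.

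The order of the hosts by ratio was much the same in the 4 cell lines. Over the 10 genes, Spearman's rho between the ratios of any pair of cell lines lay between 0.891 and 0.927 and Pearson's r between 0.824 and 0.967. Across 15912 genes that were tested and averaged 1 FPKM or more, Pearson's r between cell lines was 0.730 to 0.828. The points share an annotation and a processing, genes are not independent replicates, and these values are descriptions. In 6 genes, GAS5, SNHG1, SNHG3, SNHG5, SNHG6, and SNHG8, the log2 ratio was under -1 in every cell line. The share of all genes for which this holds is not given here.

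The order by level changed between input and RIP. By mean FPKM over the 4 inputs the order was GAS5 (533 ± 369, SD), SNHG3 (286 ± 57.5), SNHG16 (255 ± 163), SNHG1 (213 ± 73.7), SNHG6 (192 ± 119), SNHG5 (145 ± 105), SNHG8 (135 ± 76.9), SNHG7 (67.0 ± 43.1), SNHG15 (61.0 ± 48.2), and SNHG12 (48.3 ± 40.3). In RIP, SNHG16 came first with 176 ± 89.8 FPKM, ahead of GAS5 with 124 ± 34.6, and SNHG6 came last with 9.06 ± 6.90. Between these, SNHG1, SNHG7, SNHG3, SNHG5, SNHG15, SNHG12, and SNHG8 followed in this order, from 56.9 to 16.7 FPKM. Neighbours in these orders mostly did not differ beyond their spread: ranges overlapped in 9 of 9 neighbouring pairs among inputs and in 8 of 9 in RIP, and 2 pairs in each group kept their order in all 4 cell lines. These pairs were GAS5 above SNHG3 and SNHG6 above SNHG5 in the inputs, and GAS5 above SNHG1 and SNHG12 above SNHG8 in RIP. Against other long noncoding genes tested, the inputs ranked GAS5 3rd, SNHG3 4th, SNHG16 5th, and SNHG1 6th by mean FPKM among 538.

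The combined yield of the host genes fell in every cell line. Among inputs the lowest share was 0.0798% of fragments in Hep3B (95% Wilson interval 0.0788 to 0.0807), with 0.107% in HCT116 (0.106 to 0.108) and 0.117% in DU145 (0.116 to 0.118), and SW1990 had the highest with 0.177% (0.176 to 0.179). In RIP the shares were 0.0197% (0.0192 to 0.0202), 0.0294% (0.0289 to 0.0299), 0.0260% (0.0255 to 0.0266), and 0.0301% (0.0295 to 0.0306) in the same order of lines. The intervals cover counting error only, since fragments amplified by PCR are not independent molecules. The share fell least in HCT116 (3.63-fold), followed by Hep3B (4.05-fold) and DU145 (4.51-fold), and most in SW1990 (5.90-fold).

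Ribosomal protein mRNAs, a large group with TOP elements, were about as much lower in RIP as the hosts. Of 79 tested, 59 were lower and 1, RPL3, was higher, with a median log2 fold change of -1.93 beside -1.95 for the host genes. By cell line, the median log2 ratio of the hosts and of the ribosomal protein mRNAs was -1.39 and -1.18 (Hep3B), -1.87 and -1.13 (DU145), -1.68 and -2.12 (HCT116), and -2.50 and -2.68 (SW1990). The difference of these medians thus changed sign between cell lines, with a mean of -0.09 and an SD of 0.51 over 4 lines, and in 20 of 40 pairs the host gene was below the ribosomal protein median of its line. No ribosomal protein mRNA had a lower log2 fold change than SNHG6, 4 of 79 were lower than SNHG3, 32 lower than GAS5, and 71 lower than SNHG7. RPLP1, a protein of the stalk of the large subunit, RPS12, and RPS15A changed most in this list, with log2 fold changes of -3.96, -3.79, and -3.68. Ribosomal protein genes have many near-identical pseudogene copies, and how reads shared with them were counted is not given in the sources used here. RPS6 mRNA, which encodes the precipitated protein, had a log2 fold change of -2.24.

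**Figure D3:**
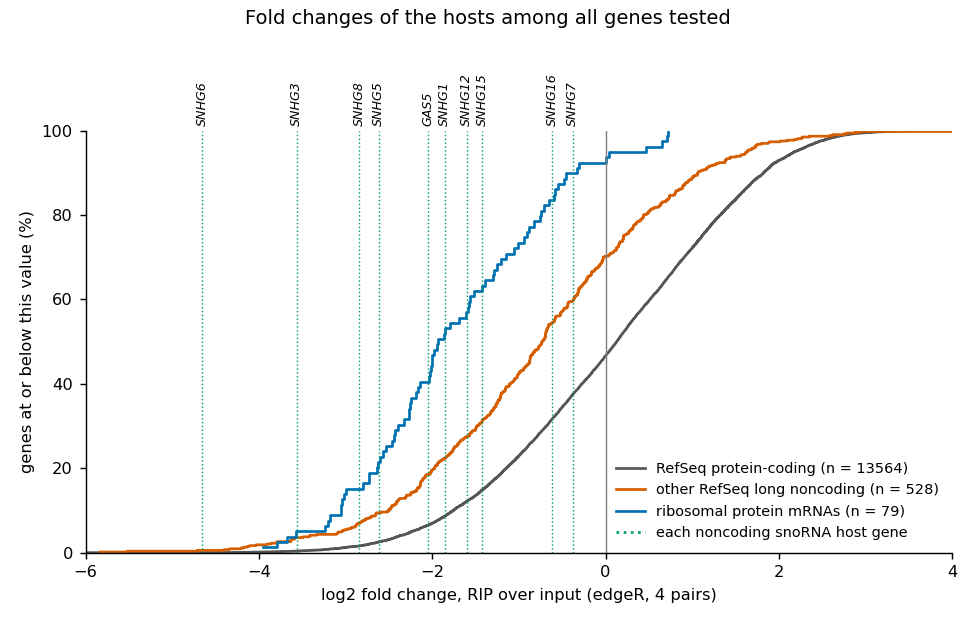
Cumulative share of genes by log2 fold change of RIP over input for protein-coding, other long noncoding, and ribosomal protein genes, with a dotted line for each host gene (values beyond -6 and 4 are off the axis). All 10 host genes lie below 0, from -4.65 for SNHG6 to -0.38 for SNHG7.

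Other noncoding hosts of snoRNAs were lower in part. Of 17 listed names, 10 were in the tables and 9 were tested, of which 5 were lower and 0 were higher in RIP, with a median log2 fold change of -0.83. EPB41L4A-AS1 (-2.87, SE 0.267), SNHG9 (-2.79, SE 0.908), ZFAS1 (-2.47, SE 0.372), and SNHG10 (-2.41, SE 0.265) were lower by much the same amount as SNHG5 and SNHG8, and DANCR (-0.68, SE 0.197) by about as much as SNHG16. SNHG11, SNHG14, SNHG17, and SNHG18 did not pass.

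Other noncoding RNAs were described by 2 overlapping sets. A list of 25 long noncoding RNAs that are well known, many of them nuclear, had 21 lower and 0 higher of 24 tested, with a median log2 fold change of -1.81. MALAT1 (-3.04) and NEAT1 (-2.93), both retained in nuclear speckles or paraspeckles, were among the 3 that changed most, and the other was HOTAIR, a partner of chromatin-modifying complexes, which had a mean of 0.253 FPKM in inputs and 0.045 in RIP. Over all 528 other long noncoding genes of RefSeq that were tested, 129 were lower (24.4%) and 40 higher (7.58%), with a median of -0.73. This set includes 21 genes of that list and the 9 other noncoding hosts, and the 498 genes in neither had 105 lower (21.1%) and 40 higher (8.03%), with a median of -0.69. RN7SL1 (-6.36) and RN7SL2 (-6.49), the RNAs of the signal recognition particle, and RPPH1 (-5.78), the RNA of RNase P, led the small structured RNAs, of which 5 of 5 were lower.

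Protein-coding hosts of snoRNAs did not move as the noncoding hosts did. Of 21 tested, 8 were lower and 6 were higher in RIP, with a median log2 fold change of -0.09, although the median log2 ratio of FPKM was positive in each cell line, from 0.07 to 0.34. TPT1 (-2.71), EEF1B2 (-2.39), which is a subunit of the elongation factor complex, and NCL (-1.94), the nucleolar protein nucleolin, changed most. Among 17 TOP mRNAs outside the ribosome, 7 were lower and 4 were higher, with a median of 0.06, and TPT1, EEF1B2, and EIF3E (-2.35) changed most.

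**Figure D4:**
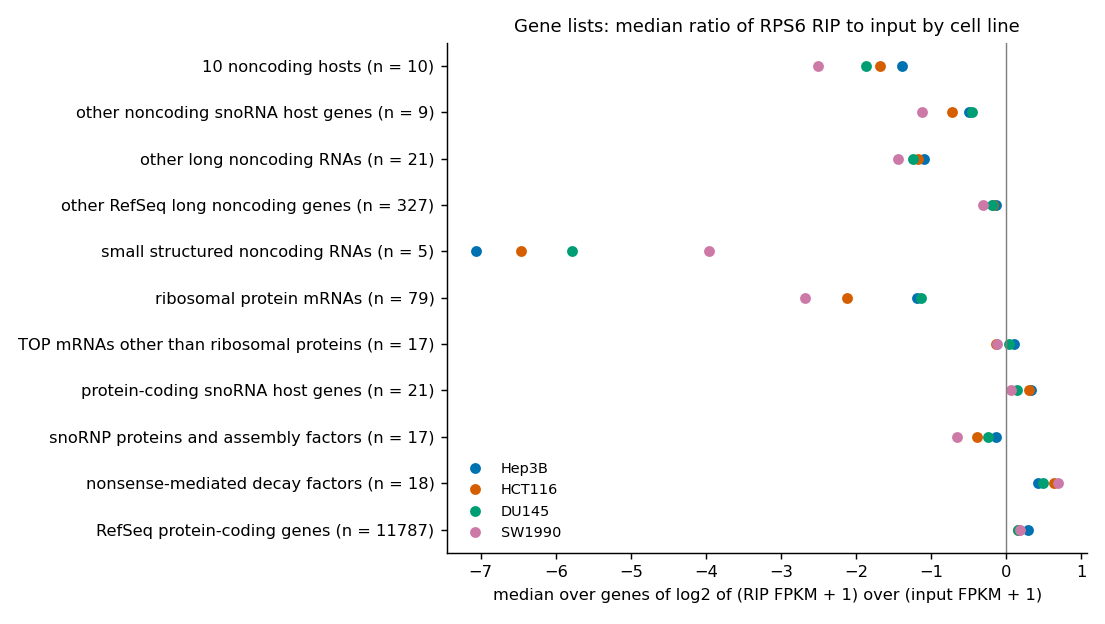
Median log2 ratio of RIP to input over the genes of each list averaging 1 FPKM or more, by cell line. The 10 noncoding hosts and the ribosomal protein mRNAs lie between -2.68 and -1.13 in all 4 lines, and protein-coding genes between 0.16 and 0.29.

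Genes of the decay and assembly pathways that act on hosts and their snoRNAs were mixed. Of 18 nonsense-mediated decay factors, 8 were higher and 7 lower in RIP, with UPF3B (-3.24) and PNRC2 (-3.03) lower and UPF1 (2.46), the helicase of this pathway, higher. Of 17 proteins of snoRNPs and their assembly, 2 were higher and 8 lower, with ZNHIT3 (-2.29) and GAR1 (-2.24) lower and RUVBL2 (1.89) higher. In these lists and in those above, values are log2 fold changes from the same fit across all genes.

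Effective length, as estimated here, moved with the fold change over all genes, and the hosts were short by this estimate. Fragments per unit of FPKM in the inputs were taken as a relative measure of the length used by the authors' software, which is an assumption. The relation of fragments to FPKM was not fixed for every gene, as values for SNHG3 given below show. When the genes tested were divided by this measure into quintiles, the median log2 fold change rose from -0.72 in the shortest quintile to 0.49 in the longest. GAS5, SNHG1, SNHG5, SNHG6, SNHG7, SNHG8, SNHG12, SNHG15, and SNHG16 fell in the shortest quintile and SNHG3 in the next. In the shortest quintile, the 9 host genes had a median of -1.85, the 70 ribosomal protein mRNAs -1.97, and the 170 other long noncoding genes -0.97, and 30% of the 3985 genes were lower. SNHG7 and SNHG16 lay above the median of all genes of this quintile. The part of length in the host values was not tested.

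**Figure D5:**
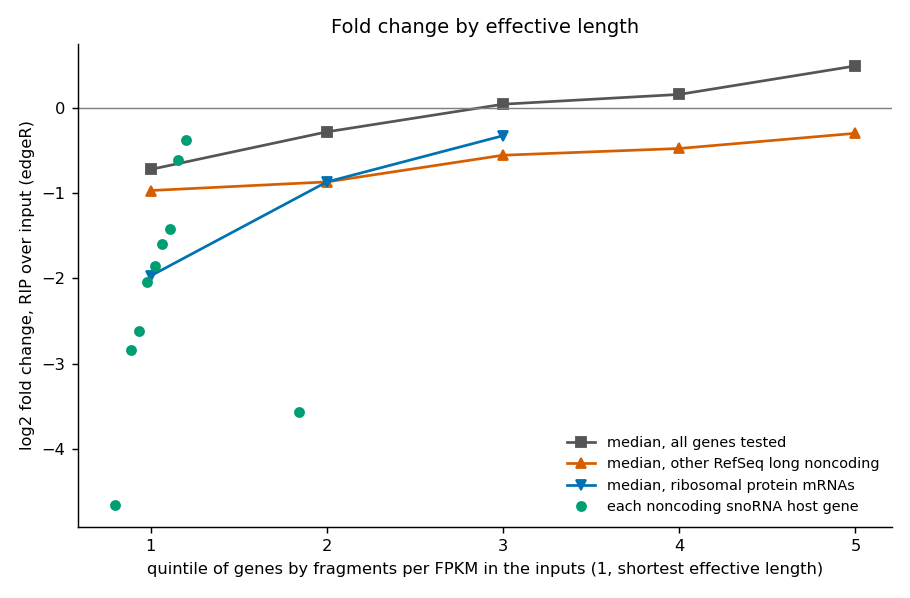
Log2 fold change of RIP over input by quintile of effective length, estimated from fragments per FPKM in the inputs. Medians are shown for all genes tested, other long noncoding genes, and ribosomal protein mRNAs, and single points for the host genes. In the shortest quintile 7 of 9 host genes lie below the median of all genes, and SNHG3 is alone in its quintile.

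The loci of several hosts are shared with other genes, and the authors' software divided fragments between them. In hg19 the listed spans of SNHG1 (chr11:62619459-62623386), SNHG5 (chr6:86370709-86388451), SNHG8 (chr4:119199863-119200978), and SNHG15 (chr7:45022621-45026560) held no other listed gene, and these 4 genes were all lower in RIP. SNHG3 (chr1:28832454-28865812) shares its span with RCC1, a protein-coding gene that was higher in RIP (log2 fold change 0.57, adjusted p = 0.0270, edgeR's quasi-likelihood test). GAS5 (chr1:173832385-173872687) shares with ZBTB37, which was lower (-1.75), SNHG12 (chr1:28879596-28909495) with TRNAU1AP (-0.72), SNHG7 (chr9:139607021-139622636) with FAM69B (1.49), and SNHG16 (chr17:74553847-74583038) with ST6GALNAC2, which did not pass (-0.43). SNHG16 and ST6GALNAC2 had like numbers of input fragments, 38704 and 43962 in sum. SNHG6 shares its span with MCMDC2, to which 429 input fragments were given against 8470 for SNHG6. The strand setting of the authors' counting is not given in the sources used here, so reads of genes that overlap on opposite strands, such as GAS5 and GAS5-AS1, may not be told apart.

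In DU145 and SW1990, fragments per FPKM fell from input to RIP further in SNHG3 than in nearly all genes. Relative to the median over genes tested in the same cell line, its value was 0.706 in Hep3B and 0.957 in HCT116, but 0.417 in DU145 and 0.458 in SW1990, where 0.239% and 0.364% of genes had lower values. For SNHG12 it was 0.861, 0.723, 0.667, and 0.887 in the same order. The log2 fold change from counts lay furthest below the mean log2 ratio of FPKM in these hosts, at -3.57 against -2.63 for SNHG3 and -1.60 against -1.04 for SNHG12, and what changed the relation of counts to FPKM was not tested.

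Few fragments were assigned to the snoRNAs listed within the host spans. Of 6 snoRNA names within the spans of 5 hosts, 4 had no fragment in any library. No snoRNA was listed within the spans of SNHG1, SNHG5, SNHG7, SNHG8, and SNHG15. The values thus do not show what part of the host fragments came from snoRNAs that are not listed. SNORA73B, in the span of SNHG3, had 413 fragments over the 4 inputs and 19 over the RIP libraries, with a log2 fold change of -3.44 (adjusted p = 0.00660, edgeR's quasi-likelihood test). The host genes together had 206604 fragments in the inputs and 40494 in RIP.

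The genes whose levels followed the hosts most closely were CCDC90B, GNG10, GINM1, DNAJC25, and EIF2AK2. They were chosen by Pearson's r with the mean centred log2(FPKM + 1) of the 10 hosts over 8 libraries, among 11602 genes averaging 5 FPKM or more, and r was 0.994, 0.991, 0.988, 0.988, and 0.988. All 5 were lower in RIP, with log2 fold changes between -2.97 for GNG10 and -1.88 for GINM1. This direction follows largely from the choice, since the host profile itself falls from input to RIP. EIF2AK2 is the kinase PKR, which binds double-stranded RNA. Among the hosts, SNHG6 followed the mean of the others best (r = 0.971) and SNHG16 least (r = 0.358), over the same 8 libraries, which share their split into RIP and input.

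The log2 fold changes of hosts with and without the pyrimidine run overlapped in part, and the shallowest falls were in hosts with a run near the start. Whether the run bears on the fold change was not tested. The hosts with the pyrimidine run at the start base, SNHG5 and SNHG12, had log2 fold changes of -2.62 and -1.60, and those with a run nearby, SNHG7, SNHG8, and SNHG16, had -0.38, -2.84, and -0.62. GAS5, SNHG1, and SNHG3, without the run near the annotated start, had -2.05, -1.85, and -3.57. These 3 genes may still carry a TOP element that the search did not find. Over protein-coding genes outside the ribosomal proteins, the median was 0.10 for 527 genes with the run at the start base and 0.10 for 10442 genes without it.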

How the data were processed

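RNA from RPS6 immunoprecipitation and from the input was sequenced in 4 cell lines, 8 libraries in all. The authors aligned the reads to hg19, and TopHat2 2.0.9 and CASAVA 1.8 stand in the submitters' processing notes. The counting tool, annotation release, strand setting, and filters are not given in the sources used here. Per gene and library the authors deposited an FPKM value and an estimated count, scaled within each library and divided between overlapping genes by their software. Tables of the authors' own fold changes and p-values per cell line were not used.

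The test had been planned for raw counts. The estimated counts were rounded and tested with edgeR 4.0.16 in R 4.3.3 (quasi-likelihood, TMM, cell line as a block, mean of at least 10 counts, Benjamini-Hochberg, threshold 0.05), after a test on simulated data. RIP and input of a cell line come from the same lysate and form the pairs. As a check of the cell line of each pair, a RIP library's deviations from its group mean were correlated with those of the inputs over 19921 genes. With its own input r was 0.852 to 0.902, and with other inputs -0.469 to -0.0205. Deviations from a group mean cancel out over the group, so high values with the own input bring negative values with others. This check cannot show a shared lysate. Log2 ratios used FPKM + 1. Fragments were recovered by dividing each library's counts by their shared step, after which 89.0% to 92.2% of values were whole within 0.01. Whether the 2 tables were normalized together is not given in the sources used here.

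Protein-coding and long noncoding genes were named by RefSeq symbols of GRCh38.p14. The 10 genes and the lists compared with them were chosen with earlier results of these data known, so lists are described by counts and medians. Named were the 10 genes, every other noncoding host that passed, the 3 largest changes among those that passed in each other list, and the 5 genes most like the hosts. Genes named besides these were chosen after their values were seen. As alternatives, DESeq2 1.42.0 was run, the block was dropped, and settings were changed to library size alone, other minima, centring on protein-coding genes, or limma 3.58.1 on log2(FPKM + 1) and log2(FPKM + 0.1), and each cell line was left out. A test on recovered fragments was added after the data were seen. Other steps ran in Python 3.11.15 (pandas 2.3.3, NumPy 2.4.6, SciPy 1.17.1), and plots were drawn with matplotlib 3.10.9. The marker check of DU145 is not reported here.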

Additional observations from a re-analysis of the deposited data

Results flagged for a closer look

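Among 30 sets of 4 values (input level, RIP level, and ratio of each host gene over the cell lines), 3 held 1 cell line that stood apart from the others by Dixon's 95% criterion for 4 samples. Chance flags about 1 in 20 sets.

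GAS5 had a log2(FPKM + 1) of 10.1 in the SW1990 input, while the other inputs had 8.27 to 8.55, and the gap was 0.849 of the range. SNHG3 had 5.27 in the DU145 RIP library, against 5.56 to 5.62 in the other RIP libraries, with a gap of 0.834 of the range. By recovered fragments DU145 was not the lowest for SNHG3, with 610 in its RIP library against 627 in Hep3B, 545 in HCT116, and 962 in SW1990. The log2 ratio of SNHG16 was 0.251 in SW1990 and -0.768 to -0.704 in the other cell lines, with a gap of 0.937 of the range. No second pair of SW1990 is among the libraries, so these values have no replicate.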

How the results depend on the processing

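Over 13 alternatives for each of 10 host genes, 118 of 130 values kept their sign and their side of the threshold, 0 were reversed, and 12 crossed it. SNHG16 was lost in 6, and SNHG7 passed in 3. GAS5, SNHG1, SNHG3, SNHG6, and SNHG8 passed in all. Without the replicate block, which leaves the pairing by cell line out, 5 hosts were lower, and over all genes 1427 were higher and 1344 lower, in place of 5282 and 4960. SNHG16 had adjusted p-values of 0.517 without the block, 0.124 and 0.122 in limma on FPKM, 0.0875 without Hep3B, 0.129 without HCT116, and 0.197 without DU145. SNHG7 had 0.0390 when centred on protein-coding genes and 0.0332 without Hep3B.

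With each cell line left out in turn, the number of hosts lower ranged from 8 to 9 and their median log2 ratio from -2.06 to -1.68. The median log2 ratio of the other long noncoding RNAs was -1.09. It became -1.39 with 0.1 added in place of 1, -0.93 with genes at any FPKM, -1.29 when centred on protein-coding genes, and -1.25 to -1.14 with a cell line left out. Centring gave 0.11 in place of 0.31 for protein-coding hosts, 0.14 in place of 0.34 for TOP mRNAs, 0.44 in place of 0.64 for decay factors, and -0.48 in place of -0.28 for the other RefSeq long noncoding genes. The last were at -0.39 with 0.1 added and 0.0 with genes at any FPKM. Leaving out a cell line gave 0.063 to 0.35 for TOP mRNAs and 0.48 to 0.77 for decay factors. The cause of these moves was not tested, except that centring subtracts the median of protein-coding genes by construction. Depth limited mainly SNHG6 in the Hep3B RIP library, and 1 pair per cell line allows no test within a line.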
